A study of Mus musculus with 6 samples.

Results

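The 10 genes known as direct transcriptional outputs or feedback regulators of β-catenin (*Axin2*, *Lef1*, *Nkd1*, *Notum*, *Rnf43*, *Znrf3*, *Lgr5*, *Tcf7*, *Sp5* and *Apcdd1*) were followed in bulk RNA-Seq counts of the mouse embryonic outflow tract (OFT). They were chosen by symbol, as the rows whose Ensembl identifier maps to these names, and all 10 were found among the 28777 genes listed. All 10 were also among the 28157 genes with enough reads to be tested. The OFT is the vessel-like segment through which the embryonic heart ejects blood, and its cushions form the semilunar valves. Of 6 libraries from E13.5 embryos, 3 were labelled mutant (*Notch1*+/-; *Nos3*-/-) and 3 wildtype littermates (*Notch1*+/+; *Nos3*+/+), on a C57/BL6J background with no treatment. Both mutant alleles are global, carried by the whole embryo rather than by a chosen cell type. Each library pooled 3 OFTs, 18 in all, cut bluntly below the conal cushions, so a value is an average over embryos and cell types. The labels do not say whether pools came from separate litters, and p-values measure only the spread between these libraries.

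In canonical Wnt signaling, a secreted Wnt binds a Frizzled receptor with an Lrp co-receptor, the complex that marks β-catenin for destruction is blocked, and β-catenin enters the nucleus to act with TCF/LEF factors. Many of the genes it turns on feed back on the pathway. They act on the secreted Wnt (*Notum*), at the receptor (*Rnf43*, *Znrf3*, *Apcdd1*), in the cytoplasm (*Axin2*, *Nkd1*) or in the nucleus (*Lef1*, *Tcf7*, *Sp5*). In the developing heart the pathway is known for roles in cushion mesenchyme and valve formation. The pathway term "target" is used here only for this textbook membership, since neither β-catenin protein nor its binding to DNA was measured in these libraries.

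The regulatory sequence before the transcription start is shown for 3 of the genes, since TCF/LEF factors read a short DNA word. *Sp5* is shown because it was the only one of the 6 members searched whose windows held a searched word. *Axin2* and *Lef1* are shown because they had the lowest unadjusted p of the inhibitors and of the transcription factors. *Apcdd1* was left out of the search, and *Znrf3*, *Lgr5* and *Notum* had no promoter entry. The windows are the 250 bases before a RefSeq start on GRCm38.p6, read 5′ to 3′ on the plus strand, in lower case. Capitals mark a match.
*Sp5*, chr2:70474673-70474922: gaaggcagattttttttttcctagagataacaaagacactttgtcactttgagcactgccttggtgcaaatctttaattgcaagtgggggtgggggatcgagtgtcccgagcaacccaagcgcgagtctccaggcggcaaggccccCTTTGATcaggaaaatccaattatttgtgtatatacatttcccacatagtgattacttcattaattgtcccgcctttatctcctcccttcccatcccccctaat
*Axin2*, chr11:108920099-108920348: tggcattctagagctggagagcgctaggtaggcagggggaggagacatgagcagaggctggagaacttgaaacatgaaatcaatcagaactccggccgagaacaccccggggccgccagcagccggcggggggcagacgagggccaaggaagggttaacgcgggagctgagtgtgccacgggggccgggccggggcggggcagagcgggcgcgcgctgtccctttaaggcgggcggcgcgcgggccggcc
*Lef1*, chr3:131110047-131110296: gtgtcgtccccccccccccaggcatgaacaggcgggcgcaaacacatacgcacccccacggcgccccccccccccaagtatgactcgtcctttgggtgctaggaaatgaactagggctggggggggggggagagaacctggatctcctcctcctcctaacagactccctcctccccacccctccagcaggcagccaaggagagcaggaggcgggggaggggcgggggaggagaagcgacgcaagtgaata
The words CTTTGAT and CTTTGAA were searched on both strands, and as they differ in the last base they cannot match at the same place. CTTTGAT was found in 1 of the 11 windows of the 6 members searched, 104 bases before the start of *Sp5*, and CTTTGAA in 0 of 11. Over all 32851 promoter windows of the same length, 3.205% held the first word, 4.456% the second and 7.479% either. The match is a description of letters in a short window, and windows without one say nothing of sites elsewhere.

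Library depth was 34729103 to 44387490 counts, and 3 counts in a library corresponded to 0.0675 to 0.0924 CPM (read counts relative to library size, with libraries scaled by the TMM method). *Notch1*, the receptor gene heterozygous under the mutant label, had 74.3, 88.2 and 83.6 CPM under the wildtype label and 155, 161 and 139 CPM under the mutant label. It was thus higher where the label calls for less (log2 fold change 0.89 ± 0.104 SE, adjusted p = 0.0313), and the libraries are therefore called by their labels throughout. *Nos3*, which encodes endothelial nitric oxide synthase, had 31.8, 47.2 and 48.1 CPM against 22.1, 22.0 and 20.4 CPM (log2 fold change −0.98, adjusted p = 0.128). Markers of myocardium, endothelium, smooth muscle and cushion mesenchyme were all present. Wildtype replicate 1 stood apart from the other wildtype libraries, with mesenchymal and blood marker sums near those of the mutant libraries, and results are given with and without it. Titles and descriptions number wildtype replicates 2 and 3 the opposite way, so those 2 numbers, taken here from the titles, only name libraries.

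All 10 genes had a fitted fold change above 0 for the mutant label over the wildtype label, against 51.2% of all genes tested. None of the 10 was called by edgeR's quasi-likelihood test with adjusted p ≤ 0.05, adjusted across the whole table, where 6 of 28157 genes (0.0213%) were called. At an unadjusted p under 0.05 the count was 8 of 10, all higher, beside 8.23% of all genes higher (16.1% in either direction). In 7 of 10 every mutant library lay above every wildtype library, beside 10.7% of all genes. The median log2 fold change of the 10 was 0.81, and that of all genes tested 0.011. DESeq2's Wald test called 5 of the 9 genes to which it gave an adjusted p (*Axin2*, *Lef1*, *Nkd1*, *Notum* and *Rnf43*), beside 4.05% of all genes (2.24% higher). Without wildtype replicate 1, edgeR called 7 of 10 (all but *Znrf3*, *Tcf7* and *Sp5*), beside 9.45% of all genes (4.15% higher). That library was the highest wildtype library for 9 of the 10 genes, so leaving it out widens their differences by construction. Leaving out any other single library gave 0 called.

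**Figure D1:**
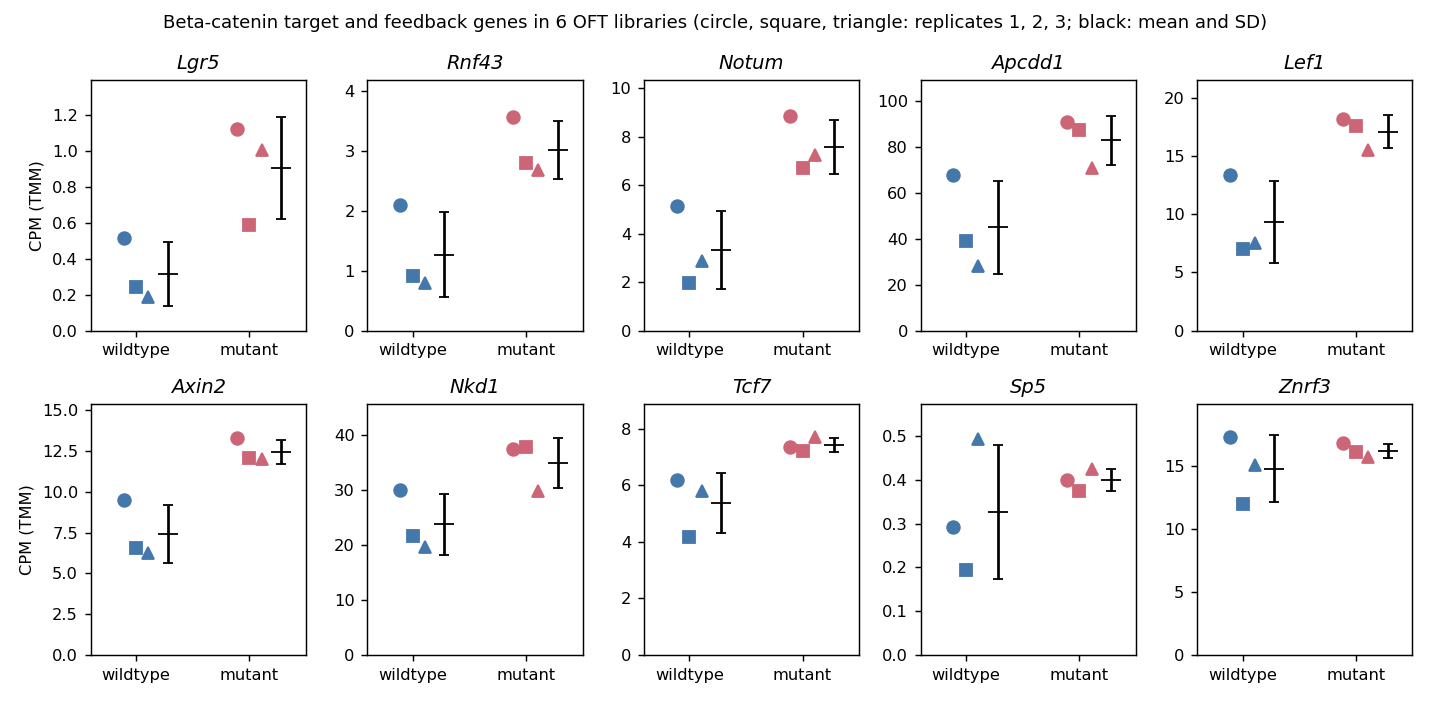
CPM (TMM scaled, linear axis from 0) of each of the 10 genes in the 3 libraries labelled wildtype (blue) and the 3 labelled mutant (red), with the mean and SD in black. Circles, squares and triangles are replicates 1, 2 and 3 of each label, and in 9 of the 10 panels the wildtype circle is the highest wildtype point.

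The secreted and membrane-bound inhibitors were examined first. *Notum* (ENSMUSG00000042988, chr11:120653788-120661175 on the minus strand, mm10) encodes a secreted enzyme that removes the lipid from Wnt proteins. It had 5.13, 1.98 and 2.87 CPM under the wildtype label and 8.85, 6.70 and 7.24 CPM under the mutant label. The lowest mutant library was 1.31 times the highest wildtype library, the widest gap of the 10 genes. Means were 3.32 ± 1.63 and 7.59 ± 1.12 CPM (SD, n = 3), a log2 fold change of 1.19 ± 0.29 SE with an adjusted p of 0.183 from edgeR, and 0.00914 from DESeq2. An antisense gene, *Notumos*, overlaps its exons at 0.286 and 0.747 CPM, and whether counting used the strand is not given in the sources used here, so reads of the 2 genes cannot be told apart. *Notumos* held about as large a ratio between labels (log2 fold change 1.36, adjusted p = 0.205). Another antisense gene that overlaps exons of *Notum*, *Myadml2os*, had means of 0.0225 CPM (wildtype) and 0.139 CPM (mutant).

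*Apcdd1* (ENSMUSG00000071847, chr18:62922231-62961179, plus strand) encodes a membrane glycoprotein that binds Wnt and Lrp proteins and dampens the signal. It had 67.4, 39.1 and 27.9 CPM under the wildtype label and 90.7, 87.1 and 70.6 CPM under the mutant label. The labels did not overlap, but wildtype replicate 1 and mutant replicate 3 lay within 1.05 times of each other. The log2 fold change was 0.88 ± 0.25 SE (44.8 ± 20.4 against 82.8 ± 10.7 CPM, SD, n = 3, edgeR adjusted p = 0.195).

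Of the cytoplasmic inhibitors, *Axin2* (ENSMUSG00000000142, chr11:108920349-108950783, plus strand) encodes a scaffold of the destruction complex and is the usual reporter of β-catenin output. It had 9.49, 6.53 and 6.25 CPM under the wildtype label and 13.3, 12.1 and 12.0 CPM under the mutant label. The mutant libraries lay close together, with a coefficient of variation of 5.82% against 24.2% for wildtype, and the labels did not overlap. The means were 7.43 ± 1.80 and 12.5 ± 0.725 CPM (SD, n = 3), a 1.68-fold ratio and a log2 fold change of 0.74 ± 0.17 SE. Its unadjusted p of 0.00122 was the smallest of the 10, and the adjusted p was 0.181 by edgeR and 0.0116 by DESeq2. The antisense gene *Gm11670*, which overlaps exons of *Axin2*, had means of only 0.0403 CPM (wildtype) and 0.0172 CPM (mutant).

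*Nkd1* (ENSMUSG00000031661, chr8:88521354-88594884, plus strand) encodes a protein that binds Dishevelled and restrains the signal. It had 30.1, 21.6 and 19.6 CPM under the wildtype label and 37.4, 37.8 and 29.7 CPM under the mutant label. Wildtype replicate 1 was above mutant replicate 3 by a narrow margin, so the labels overlapped at that single pair. The log2 fold change was 0.56 ± 0.16 SE (edgeR adjusted p = 0.197, DESeq2 adjusted p = 0.047).

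The next group acts at the receptor. *Rnf43* (ENSMUSG00000034177, chr11:87662722-87735539, plus strand) and *Znrf3* (ENSMUSG00000041961, chr11:5276324-5444847, minus strand) encode related transmembrane ubiquitin ligases that clear Frizzled receptors from the cell surface. *Rnf43* had 2.09, 0.915 and 0.801 CPM under the wildtype label and 3.57, 2.80 and 2.68 CPM under the mutant label, with no overlap. Its log2 fold change was 1.23 ± 0.35 SE, with an adjusted p of 0.194 by edgeR and 0.036 by DESeq2. *Znrf3* had 17.3, 12.0 and 15.1 CPM against 16.8, 16.1 and 15.7 CPM. The mutant values of *Znrf3* lay inside the wildtype range, with a log2 fold change of 0.13 ± 0.14 SE (edgeR adjusted p = 0.685). The 2 ligases thus took different shares of their sum in each library, as the ratios further on give.

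*Lgr5* (ENSMUSG00000020140, chr10:115450311-115587780, minus strand) encodes a receptor for R-spondins, ligands that keep these ligases from acting. It was read at 23, 10 and 6 counts under the wildtype label and 45, 22 and 38 counts under the mutant label, or 0.517, 0.241 and 0.185 CPM against 1.12, 0.587 and 1.01 CPM. All wildtype values were below all mutant values, although wildtype replicate 1 and mutant replicate 2 were close. The log2 fold change of 1.49 ± 0.48 SE was the highest of the 10 and rested on the fewest wildtype reads after *Sp5* (edgeR adjusted p = 0.217, DESeq2 adjusted p = 0.104).

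Among the transcription factors, *Lef1* (ENSMUSG00000027985, chr3:131110471-131224356, plus strand) encodes a DNA-binding partner of β-catenin. It had 13.4, 7.03 and 7.52 CPM under the wildtype label and 18.2, 17.6 and 15.5 CPM under the mutant label. No library of one label reached the other label's range, though wildtype replicate 1 stood well above the 2 other wildtype libraries. The log2 fold change was 0.87 ± 0.22 SE, from 9.30 ± 3.52 to 17.1 ± 1.43 CPM (SD, n = 3), with an adjusted p of 0.184 by edgeR and 0.0127 by DESeq2. An antisense gene, *Gm43352*, overlaps exons of *Lef1*, with means of 0.105 CPM (wildtype) and 0.287 CPM (mutant). As for *Notum*, reads of the overlapping genes cannot be told apart.

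*Tcf7* (ENSMUSG00000000782, chr11:52252371-52283014, minus strand) encodes another member of the same family. It had 6.19, 4.17 and 5.79 CPM under the wildtype label and 7.35, 7.23 and 7.72 CPM under the mutant label. Its mutant values were the tightest of the 10 genes, with a coefficient of variation of 3.43%, and did not overlap the wildtype values. The log2 fold change was 0.47 ± 0.17 SE (edgeR adjusted p = 0.249). *Sp5* (ENSMUSG00000075304, chr2:70474923-70477729, plus strand), which encodes a zinc finger repressor of the pathway's outputs, was at 13, 8 and 16 counts under the wildtype label and 16, 14 and 16 counts under the mutant label. These are 0.292, 0.193 and 0.493 CPM against 0.400, 0.374 and 0.424 CPM, the labels overlapped, and a difference was not detectable at this depth (log2 fold change 0.31 ± 0.50 SE, edgeR adjusted p = 0.806).

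For each of the 7 genes without overlap a two-sided exact permutation test of log2(CPM + 0.5) gave p = 0.1, the smallest value that 3 libraries against 3 can give. Groups without overlap always give this value, so it only restates the lack of overlap. For *Nkd1* the test gave p = 0.2, and for *Znrf3* and *Sp5* p = 0.5 (exact permutation test). Of the 10 genes, 5 (*Axin2*, *Tcf7*, *Rnf43*, *Znrf3* and *Notum*) lie on chromosome 11. Their log2 fold changes ran from 0.13 for *Znrf3* to 1.23 for *Rnf43*. *Ctnnb1*, which encodes β-catenin, had 712, 718 and 737 CPM under the wildtype label and 695, 715 and 662 CPM under the mutant label (log2 fold change −0.06, edgeR adjusted p = 0.787).

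**Figure D2:**
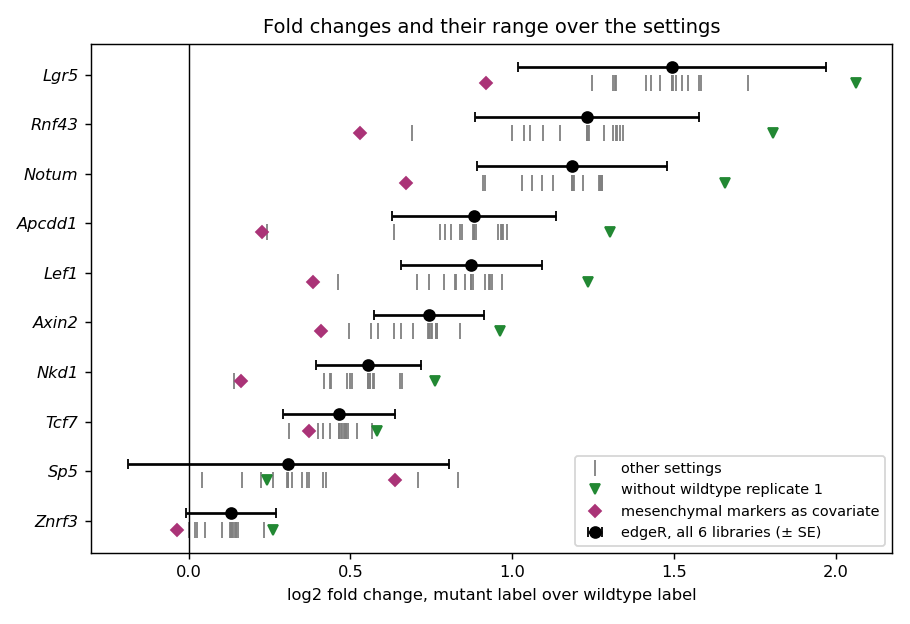
Log2 fold change of each gene, mutant label over wildtype label, by edgeR on all 6 libraries (black, ± SE), without wildtype replicate 1 (green), with the mesenchymal marker mean as a covariate (purple) and under the other settings (grey ticks). The black points run from 0.13 for *Znrf3* to 1.49 for *Lgr5*, and the only value below 0 is that of *Znrf3* with the mesenchymal covariate, −0.035.

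The 10 genes were then set side by side, library by library. Set against its own mean over the 6 libraries, each gene was above the mean in all 3 mutant libraries. In wildtype replicate 1 the count above the mean was 6 of 10, in wildtype replicate 2 it was 0 and in wildtype replicate 3 it was 1. The median deviation was 0.07 in wildtype replicate 1, −0.53 and −0.60 in wildtype replicates 2 and 3, and 0.50, 0.36 and 0.29 in mutant replicates 1, 2 and 3 (log2). Wildtype replicate 1 therefore lay between the 2 other wildtype libraries and the mutant libraries. It was the highest wildtype library for 9 of 10 genes, all but *Sp5*. Among the 8 with a mean of at least 1 CPM it was the highest for 8, beside 39.1% of the 16655 genes at that level. The mutant libraries had the smaller coefficient of variation for all 8, beside 66.6% of those genes.

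Set against wildtype replicate 1 alone, the mutant mean was 1.75-fold for *Lgr5*, 1.48-fold for *Notum*, 1.44-fold for *Rnf43*, 1.37-fold for *Sp5*, 1.31-fold for *Axin2* and 1.28-fold for *Lef1*. For *Apcdd1* it was 1.23-fold, for *Tcf7* 1.20-fold and for *Nkd1* 1.16-fold. *Znrf3* was at 0.939 of that library. A ratio to a single library carries no test.

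**Figure D3:**
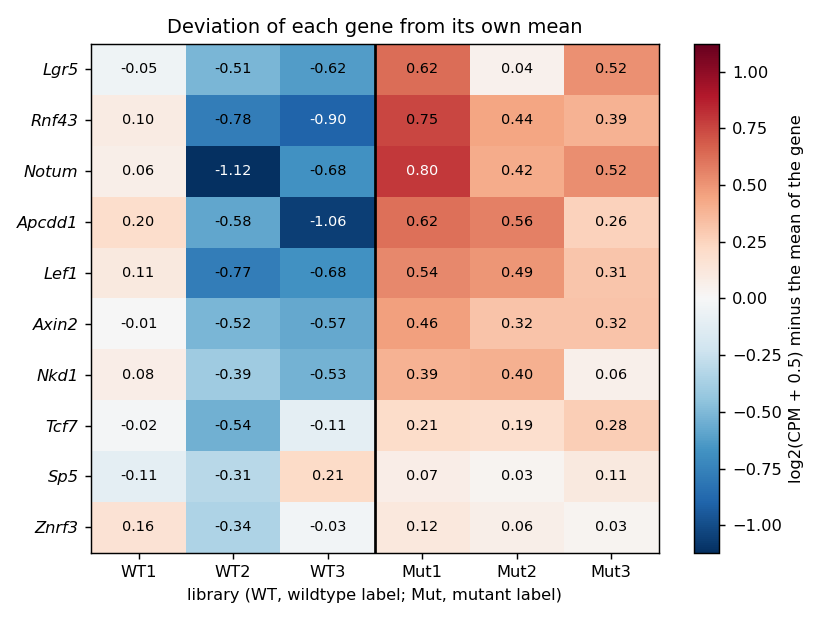
Deviation of each gene, log2(CPM + 0.5) minus its own mean over the 6 libraries, with genes in rows and libraries in columns (WT, wildtype label; Mut, mutant label). Blue cells are below and red cells above the mean, and the medians run from −0.60 in WT3 to 0.50 in Mut1, with WT1 near 0 at 0.07.

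Levels of different genes were compared only as CPM per kilobase of exon. Under the wildtype label *Nkd1* was highest at 5.21, followed by *Apcdd1* 3.48, *Tcf7* 2.05, *Znrf3* 1.88, *Notum* 1.38, *Axin2* 1.35 and *Lef1* 1.06 CPM per kilobase, and each of these overlapped the next one in its library values. *Rnf43* at 0.194 and *Sp5* at 0.155 CPM per kilobase were below all of these and overlapped each other, and *Lgr5* was lowest at 0.0306. Under the mutant label the order began with *Nkd1* at 7.67 and *Apcdd1* at 6.42, then *Notum* at 3.15, *Tcf7* at 2.83, *Axin2* at 2.26, *Znrf3* at 2.06 and *Lef1* at 1.95 CPM per kilobase. It ended with *Rnf43* at 0.460, *Sp5* at 0.190 and *Lgr5* at 0.0883. *Notum* thus stood below *Tcf7* and *Znrf3* under the wildtype label and above both under the mutant label. Under the mutant label *Notum* overlapped *Tcf7* in its libraries, and *Axin2* was above *Znrf3* in all of them.

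Each member was next set against a family member in the same library, a ratio that does not depend on library scaling beyond its pseudocount of 0.5 CPM. The pairs were chosen after the values were seen. *Axin2* over *Axin1*, its constitutive relative in the destruction complex, had log2 ratios of −2.05, −2.60 and −2.73 under the wildtype label and −1.79, −1.90 and −1.76 under the mutant label. The ratio was higher by 0.64 under the mutant label without overlap, and *Axin1* itself had a log2 fold change of 0.09. *Lef1* over *Tcf7l2* had log2 ratios of −0.24, −0.73 and −0.88 against 0.07, −0.02 and 0.05, a difference of 0.65. *Rnf43* over *Znrf3* had −2.78, −3.15 and −3.59 against −2.09, −2.33 and −2.35, a difference of 0.91. *Lgr5* over *Lgr4* differed by 1.02 and *Nkd1* over *Nkd2* by 0.40, also without overlap. *Lgr5* lay at only 0.185 to 1.12 CPM, so the pseudocount shrinks its ratio. The fitted log2 fold changes were 1.49 for *Lgr5* and −0.24 for *Lgr4*. *Tcf7* over *Tcf7l2* overlapped between labels, with a difference of 0.20.

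For the 5 pairs without overlap the two-sided exact permutation test gave p = 0.1, again the smallest it can give, and for *Tcf7* over *Tcf7l2* p = 0.2. Lack of overlap fixes the value of 0.1 in advance, so it adds nothing for these pairs. Leaving out each library in turn kept the differences between 0.51 and 0.85 for *Axin2* over *Axin1*, 0.52 and 0.84 for *Lef1* over *Tcf7l2*, and 0.71 and 1.11 for *Rnf43* over *Znrf3*. Those of *Tcf7* over *Tcf7l2* ran from 0.10 to 0.27. In each of the 3 former pairs the highest value was the one without wildtype replicate 1.

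**Figure D4:**
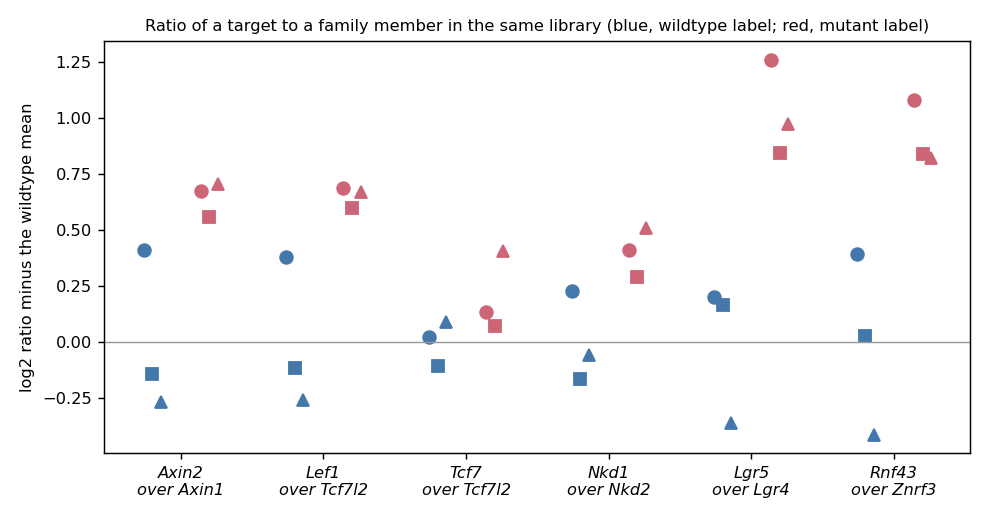
Log2 ratio of a target gene to a family member in the same library, minus the wildtype mean of that ratio, for 6 pairs (blue, wildtype label; red, mutant label; circle, square and triangle are replicates 1, 2 and 3). The red points lie above the blue ones for 5 pairs, with mean differences from 0.40 to 1.02, and overlap them for *Tcf7* over *Tcf7l2*. The value of 1.02, for *Lgr5* over *Lgr4*, is shrunk by the pseudocount of 0.5 CPM.

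Within the TCF/LEF family, the share of each factor was taken from the sum of the 4 genes in CPM per kilobase. *Lef1* took 13.9%, 8.07% and 8.53% under the wildtype label and 14.8%, 14.0% and 13.8% under the mutant label. Wildtype replicate 1 was thus inside the mutant range, and the mean shares of 10.2% ± 3.21 and 14.2% ± 0.525 (SD, n = 3) gave an exact permutation p of 0.2. *Tcf7* took 19.8% and 20.8%, *Tcf7l1*, known mainly as a repressor, 54.5% and 51.0%, and *Tcf7l2* 15.5% and 13.9%, with exact permutation p-values of 0.8, 0.6 and 0.3. With 3 libraries a label this test cannot give a p under 0.1, so it could not have shown a change in the makeup of the family.

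The genes whose profile over the 6 libraries lay nearest to that of *Axin2* were sought among 16654 others with a mean of at least 1 CPM, by the root mean square difference of mean-centred log2(CPM + 0.5). The 5 nearest were *Pla2g4b* at 0.07, *A930004J17Rik* at 0.08 and *Spag4*, *Sned1* and *Scara3* at 0.09, none of them a member. Their log2 fold changes were 0.99, 0.61, 0.73, 0.63 and 0.80. Of the members, *Nkd1* was nearest to *Axin2* at 0.13 (place 41) and *Lef1* next at 0.15 (place 73). *Rnf43* was at 0.22 (place 585), *Tcf7* at 0.22 (place 617), *Apcdd1* at 0.25 (place 968), *Notum* at 0.30 (place 2197) and *Znrf3* at 0.32 (place 2734). The measure describes 6 libraries that share their depth and makeup and says nothing of shared control.

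The rest of the pathway was described with 7 lists of 97 genes, of which 86 were tested. edgeR called 0 of the 86. At an unadjusted p under 0.05, 20 were higher and 4 lower under the mutant label, beside 8.23% and 7.83% of all genes tested. These shares also stand beside the counts of each list below. DESeq2 called 7 of the 86, 6 higher and 1 lower, beside 4.05% of all genes. Without wildtype replicate 1 edgeR called 16, 15 higher and 1 lower, beside 9.45% of all genes. The list medians lay between 0.01 and 0.19, against 0.81 for the 10 target and feedback genes and 0.011 for all genes.

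Of the Wnt ligands, 13 of 19 were listed, 11 with a fold change above 0, and 4 had an unadjusted p under 0.05, all higher. *Wnt9b*, an endocardial ligand of the cushions, had 11.1, 12.6 and 6.93 CPM under the wildtype label and 17.7, 19.8 and 16.8 CPM under the mutant label. Its labels did not overlap, and the log2 fold change was 0.82 ± 0.191 SE (edgeR adjusted p = 0.181). The smallest value among ligands of at least 1 CPM was that of *Wnt2b* at 0.06. Of the 12 receptor genes 10 were above 0 and 3 had an unadjusted p under 0.05, all higher, with *Fzd10* at 0.77 and *Fzd5* at −0.37. Of the 5 listed R-spondins and their receptors, 3 were above 0 and 0 passed an unadjusted p of 0.05, with *Lgr6* at 0.37 and *Lgr4* at −0.24.

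Secreted antagonists were divided, with 7 above and 6 below 0, and 2 higher and 3 lower at an unadjusted p under 0.05. *Dkk3* was at 0.75 and *Sfrp5*, which binds Wnt proteins outside the cell, at −0.75. Of 17 cytoplasmic genes 11 were above 0 and 4 had an unadjusted p under 0.05, all higher, with *Apc2*, a relative of the scaffold Apc, at 0.85 and *Amer1* at −0.08. Of 13 nuclear partners 11 were above 0, with 5 higher and 1 lower at an unadjusted p under 0.05. *Tle2*, a co-repressor of the Groucho family, had 24.5, 14.9 and 11.5 CPM under the wildtype label and 39.5, 42.4 and 25.6 CPM under the mutant label. It did not overlap and had a log2 fold change of 1.08 ± 0.257 SE (edgeR adjusted p = 0.181), while *Cby1*, an antagonist that binds β-catenin, was at −0.38.

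Other reported targets, many of them cell cycle or transcription factor genes, were described in the same way. Of 13 listed genes 10 were above 0, with a median log2 fold change of 0.08. Labels without overlap were found for 0 of the 13, beside 19.6% of all genes. *Tbx3* was at 0.62, *Dact1* at 0.44, *Nkd2* at 0.18, *Myc* at 0.14 and *Ccnd1* at −0.06. The last 2 are broadly used growth genes that many other signals also control. At an unadjusted p under 0.05, 2 of the 13 were higher and 0 lower.

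Markers of cell types also differed between these libraries, and in bulk tissue fewer cells of a type and less RNA per cell cannot be told apart. The sum of 8 mesenchymal markers was 4139, 2324 and 2078 CPM under the wildtype label and 4124, 4249 and 3773 CPM under the mutant label. Wildtype replicate 1 was thus inside the mutant range. All 8 had a fold change above 0 (median 0.63). An unadjusted p under 0.05 was reached by 5, beside 8.23% of all genes higher, and 0 were called. Without wildtype replicate 1 edgeR called 7, all higher, beside 4.15% of all genes higher. *Postn*, a matrix protein of the cushions and the marker with the most reads per kilobase of exon, was at 1258 ± 511 and 1854 ± 58.1 CPM (SD, n = 3).

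With the mean of the mesenchymal list as a covariate, a setting added after the data were seen, the median of the 10 genes was 0.40 in place of 0.81. In that fit *Lgr5* was at 0.92, *Notum* at 0.67, *Sp5* at 0.64, *Rnf43* at 0.53, *Axin2* at 0.41, *Lef1* at 0.38, *Tcf7* at 0.37, *Apcdd1* at 0.23, *Nkd1* at 0.16 and *Znrf3* at −0.035. None was called. The mesenchymal mean was above its average over the 6 libraries in all 3 mutant libraries and in wildtype replicate 1, and below it in the 2 others, so cell makeup and label cannot be told apart in this fit.

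The sum of 10 myocardial markers was 27414, 29148 and 38189 CPM under the wildtype label and 22929, 19317 and 26918 CPM under the mutant label. All 10 had a fold change below 0 (median −0.49), and *Actc1* had the most reads per kilobase of exon. An unadjusted p under 0.05 was reached by 8, beside 7.83% of all genes lower, and 0 were called by edgeR. Without wildtype replicate 1 edgeR called 6, all lower, beside 5.3% of all genes lower. When their mean entered the fit as a covariate, the 10 target and feedback genes had a median of 0.49. The 7 blood markers, led per kilobase by *Hba-a2*, summed to 5289, 11774 and 10089 against 6126, 6080 and 6221 CPM. The 5 liver markers, among them *Alb*, summed to 1.33, 93.6 and 25.5 against 2.57, 4.96 and 1.03 CPM, so liver RNA was present chiefly in the 2 wildtype libraries with the lowest sums of the 10 genes. Its part in the result was not tested.

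The remaining lists gave sums that overlapped between labels or were low. Endothelial markers, among them *Cdh5*, summed to 954 to 1299 CPM under the wildtype label and 1012 to 1137 CPM under the mutant label. Smooth muscle markers, among them *Acta2*, summed to 1830 to 2227 and 1679 to 1841 CPM, epicardial markers, among them *Upk3b*, to 199 to 315 and 203 to 264 CPM, and macrophage markers, among them *C1qb*, to 96.3 to 149 and 99.9 to 121 CPM. Neural crest and glia markers, among them *Erbb3*, summed to 23.6 to 36.4 and 32.5 to 40.5 CPM. Neuronal markers summed to 11.3 to 22.4 CPM and 24.1 to 32.9 CPM without overlap, and *Tubb3* had a log2 fold change of 1.29 (edgeR adjusted p = 0.128). Endoderm, thymus and T cell, and surface ectoderm markers, among them *Krt8*, *Ptcra* and *Krt14*, each summed to at most 14.1 CPM in any library, and *Shh*, *Foxn1*, *Cd3e* and *Cd3g* were not listed.

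**Figure D5:**
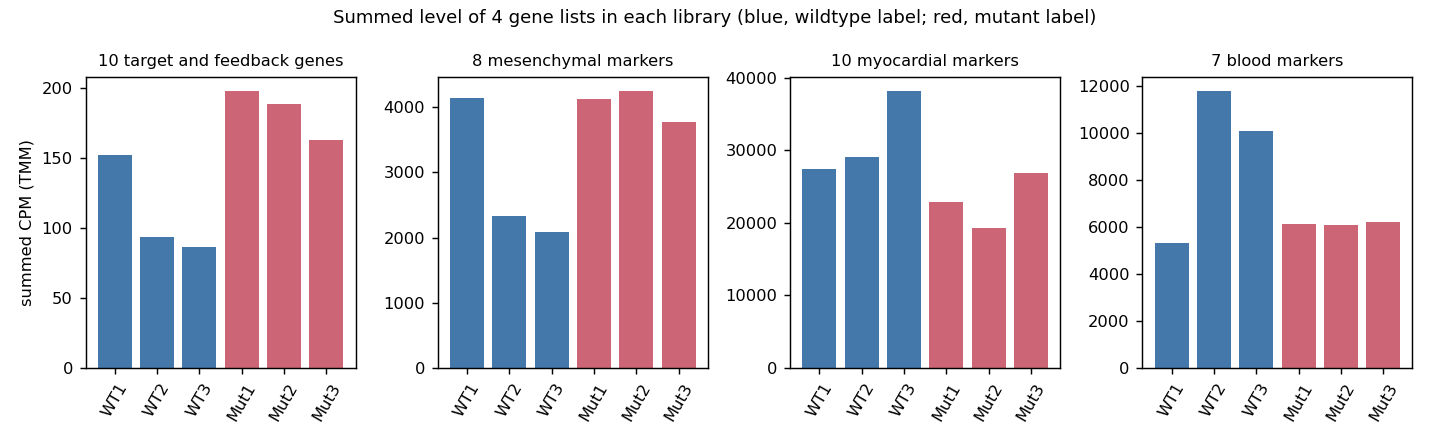
Summed CPM (linear axes from 0) of the 10 target and feedback genes and of the mesenchymal, myocardial and blood marker lists in each library (WT, wildtype label; Mut, mutant label). The 10 genes sum to 86.6 to 152 CPM under the wildtype label and 163 to 198 CPM under the mutant label. Wildtype replicate 1 (WT1) is the wildtype library nearest to the mutant libraries for the 10 genes and for the mesenchymal, myocardial and blood markers.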

How the data were processed

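The authors pooled 3 OFTs per library, sequenced ribosomal RNA-depleted stranded libraries as paired ends, aligned reads to mm10 with TopHat2 2.1.0 and counted reads on exons with GenomicAlignments. They deposited counts per gene, whole numbers without normalization, in which the smallest sum over the libraries was 5. The annotation release, strand setting and treatment of overlapping genes are not given in the sources used here.

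Counts (34729103 to 44387490 per library) were analysed in R 4.3.3. Genes with 5 or fewer reads in all were left out, as in the authors' methods. The 28157 others were scaled by TMM and tested with edgeR 4.0.16 (quasi-likelihood test, Benjamini-Hochberg adjustment over all of them, adjusted p at most 0.05, biological coefficient of variation 0.17). The authors used DESeq2 1.26.0. DESeq2 1.42.0, limma 3.58.1 (voom) and the settings described at the end were alternatives. The code was tested on simulated counts before use. The floor of 3 counts covers counting error only, and SD and SE include no error of dissection. Positions and exon lengths came from GENCODE on mm10 (28723 of 28777 identifiers matched) and promoters from RefSeq on GRCm38.p6.

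Groups follow the sample titles. The 10 genes, the pathway lists and the marker lists were chosen with earlier results of these data known, so no list is independent evidence. Beside the 10 genes, *Notch1*, *Nos3* and *Ctnnb1*, the text names the largest increase and decrease of each pathway list with a mean of at least 1 CPM, the 5 genes nearest to *Axin2* and the marker of each list with the most reads per kilobase of exon (blood, endoderm, endothelial, epicardial, liver, macrophage, mesenchymal, myocardial, neural crest, neuronal, smooth muscle, surface ectoderm and thymus). Other genes named (family members in ratios, overlapping genes, *Dact1*, *Nkd2* and *Myc*) were chosen after their values were seen.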

Additional observations from a re-analysis of the deposited data

How the results depend on the processing

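The sign of all 10 fold changes held under every alternative run but 1, *Znrf3* at −0.035 with the mesenchymal covariate (chosen after seeing the data). The median of the 10, 0.81, was 0.49 with the myocardial and 0.40 with the mesenchymal covariate and ran from 0.67 to 1.10 over the fits that each left out 1 library, the highest without wildtype replicate 1. The number called, 0 by edgeR, was 5 by DESeq2 and 0 to 7 over those fits, 7 without wildtype replicate 1 and 0 without any other library. Of the 86 pathway genes, DESeq2 called 7 (4.05% of all genes), and those fits called 0 to 16, 16 without wildtype replicate 1 (9.45% of all genes). Genes without overlap, all higher, numbered 7 to 9 over those fits (10.7% of all genes with all libraries), 9 without wildtype replicate 1, where 22% of all genes were higher without overlap, and 8 with scaling by library size only (15.2%), which also moved the median of all genes from 0.011 to 0.11. The other settings (limma-voom, DESeq2's size factors, no filter on low counts, filterByExpr, GC content and length) called 0 of the 10. Why the counts differ between tools was not tested.

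Replicate numbers are shared between the labels, but the pairing was not borne out. Same-numbered libraries had correlated deviations of 0.096, 0.159 and 0.420, and wildtype replicate 1 correlated better with mutant replicate 2 (0.277). With a replicate block by title, 6 of the 10 and 12 pathway genes were called (5.6% of all genes), by description 3 and 1 (0.295%), and with the block by title plus GC content and length correction 6 and 12 (8.37%). *Lgr5* and *Sp5* had under 50 counts in every library.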
